A study of Mus musculus with 3 samples.

Results

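Dimethylated lysine 9 of histone H3 (H3K9me2) was measured on 1 of the study's 3 promoter arrays, in C2C12 cells arrested in G0. Promoters were taken from the array's own gene names: of 15829 names on the autosomes, 15361 had at least 3 probes whose input signal was well above background, 416 had 1 or 2 such probes and 52 had none. C2C12 is an established line of mouse myoblasts, the precursor cells of skeletal muscle, which stop dividing reversibly when they are kept from attaching. For every array, arrested cells from 2% methylcellulose were crosslinked in 1% formaldehyde, the reaction was stopped with 0.125 M glycine, and precipitated DNA (IP, labelled with Cy5) was hybridised beside input DNA (Cy3). The other 2 arrays carried DNA precipitated with an antibody against PRDM2. All 3 arrays came from arrested cells, so none shows cycling or differentiating cells, and a ChIP array holds no expression values with which the labelled cell type could be checked.

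H3K9me2 is a mark of silent chromatin that is laid down mainly by the methyltransferases G9a and GLP and read by HP1 proteins. It covers broad domains rather than sharp peaks, is found over gene families that a lineage does not use, and is low at active promoters rich in CpG. PRDM2 (also called RIZ1) is a zinc finger protein whose PR domain has been described as an H3K9 methyltransferase.

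The unit throughout is log2 of IP over input. A probe's centred ratio is relative to the median probe of the array, and its class-adjusted ratio is relative to the median of probes of like GC content and like input signal, from 20 classes of GC with 10 classes of input in each. A promoter's value is the mean over its usable probes, of which the median promoter had 14 over 3424 bp. A promoter was called marked at a class-adjusted value of 1 or more and unmarked at -1 or less, which are 2-fold differences from probes of like GC and input. With 1 array there was no replicate, and these calls carry no test. The SE given with a promoter is over its probes, which lie on 1 array and share 1 IP.

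Signal differed between the arrays. Relative to negative controls, the H3K9me2 array's IP signal was 6.44-fold and the PRDM2 arrays' 1.47-fold and 1.39-fold. Input signal was 6.12-fold on the H3K9me2 array and 3.48-fold and 4.66-fold on the PRDM2 arrays. IP was well above background for 78.9% of the H3K9me2 array's probes and for 75.7% and 71.1% on the PRDM2 arrays. Input was well above background for 92.8% of the H3K9me2 array's probes, against 98.0% and 99.0% on the PRDM2 arrays. Each array lay on its own slide, so slide and antibody cannot be told apart.

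Sequences are shown for 2 marked and 2 unmarked promoters, the most extreme with at least 8 usable probes whose start could be placed in a RefSeq promoter window and whose printed bases lay in no annotated gene, because CpG content went with the ratio at fixed GC. For each, the upstream probe with the most extreme value comes first and the 250 bases upstream of the RefSeq start follow, 5′ to 3′ in lower case with each CpG in capitals. Probes are printed as on the array, whichever strand they read. Probe positions are those of the array design, whose build the sources used here do not name, and upstream bases are RefSeq's on GRCm38.p6. The Hist1h4c probe (chr13:23706495-23706554), 602 bp upstream of the start of this histone H4 gene, had a class-adjusted ratio of 3.99.
Hist1h4c probe: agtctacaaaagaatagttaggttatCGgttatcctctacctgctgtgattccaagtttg
Hist1h4c upstream, chr13:23698459-23698708, minus strand: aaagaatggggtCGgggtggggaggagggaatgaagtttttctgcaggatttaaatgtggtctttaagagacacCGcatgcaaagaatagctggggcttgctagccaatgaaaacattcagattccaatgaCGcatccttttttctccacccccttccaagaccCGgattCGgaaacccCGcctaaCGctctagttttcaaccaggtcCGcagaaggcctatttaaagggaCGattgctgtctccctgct
The Iqub probe (chr6:24466040-24466099), 992 bp upstream of the start, had a ratio of 5.13.
Iqub probe: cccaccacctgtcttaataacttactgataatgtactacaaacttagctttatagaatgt
Iqub upstream, chr6:24515068-24515317, minus strand: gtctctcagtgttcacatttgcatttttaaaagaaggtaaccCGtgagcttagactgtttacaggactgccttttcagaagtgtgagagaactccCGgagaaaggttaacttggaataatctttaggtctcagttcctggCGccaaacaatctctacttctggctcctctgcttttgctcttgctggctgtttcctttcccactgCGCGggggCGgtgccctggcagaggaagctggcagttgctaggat
The Rmnd5b probe (chr11:51479369-51479413), 72 bp upstream of the start, had a ratio of -4.92 and held 5 CpG.
Rmnd5b probe: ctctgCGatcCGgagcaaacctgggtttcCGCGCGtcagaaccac
Rmnd5b upstream, chr11:51635897-51636146, minus strand: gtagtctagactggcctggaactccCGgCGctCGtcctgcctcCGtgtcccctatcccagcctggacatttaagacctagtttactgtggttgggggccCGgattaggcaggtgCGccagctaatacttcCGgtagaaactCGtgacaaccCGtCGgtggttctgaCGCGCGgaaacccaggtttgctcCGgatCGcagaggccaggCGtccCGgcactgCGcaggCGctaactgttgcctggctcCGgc
The Afg3l1 probe (chr8:126363219-126363271), 707 bp upstream of the start of a gene for a mitochondrial protease subunit, had a ratio of -4.10.
Afg3l1 probe: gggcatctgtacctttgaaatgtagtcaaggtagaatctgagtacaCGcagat
Afg3l1 upstream, chr8:123477612-123477861, plus strand: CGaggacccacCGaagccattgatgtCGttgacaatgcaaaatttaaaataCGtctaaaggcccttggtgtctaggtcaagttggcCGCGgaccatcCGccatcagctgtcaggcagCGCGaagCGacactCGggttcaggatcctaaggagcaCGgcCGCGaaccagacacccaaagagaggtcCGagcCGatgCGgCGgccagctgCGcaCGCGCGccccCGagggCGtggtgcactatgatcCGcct
The upstream windows held 9 CpG for Hist1h4c, 6 for Iqub, 20 for Rmnd5b and 25 for Afg3l1. The motif counted was CG, which reads the same on both strands, and 92.1% of 32851 RefSeq windows of this length held at least 1, with a median of 6.

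Marked promoters had few CpG in the 250 bases upstream of the RefSeq start. Over the 8254 promoters with a value and a placed start the median window held 12 CpG and 5.14% held none. The 544 marked promoters among them had a median of 1 CpG and 28.9% had none, and the 282 unmarked promoters had a median of 13 and 2.13% had none. The 302 marked promoters outside the chemosensory receptors had a median of 3 CpG and 11.9% had none. Array probes can lie within these windows, so CpG number and the calls are not independent, and marked promoters are also poor in GC (median 38.2% against 44.4%). Against promoters of like GC, the median difference in CpG per probe was -0.05 for marked promoters, 0 for those outside the receptors and 0.08 for unmarked promoters. The windows themselves were not compared at like GC.

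The uncorrected ratio rose with probe GC. The median centred ratio was -1.41 in the class of lowest GC (16.7% to 33.3%), 0.10 at 46.0% to 46.9% and 1.71 in the class of highest GC (64.4% to 86.7%). The SD over probes ran the other way, from 2.23 in the lowest class to 1.03 in the highest. On this scale 592 promoters (3.85%) lay at 1 or more and 1798 (11.7%) at -1 or less. Within classes 1003 promoters were marked (6.53%) and 775 were unmarked (5.05%). Of these, 426 marked and 628 unmarked promoters were also past the same threshold without classes, and 994 marked promoters had a centred ratio above 0.

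**Figure D1:**
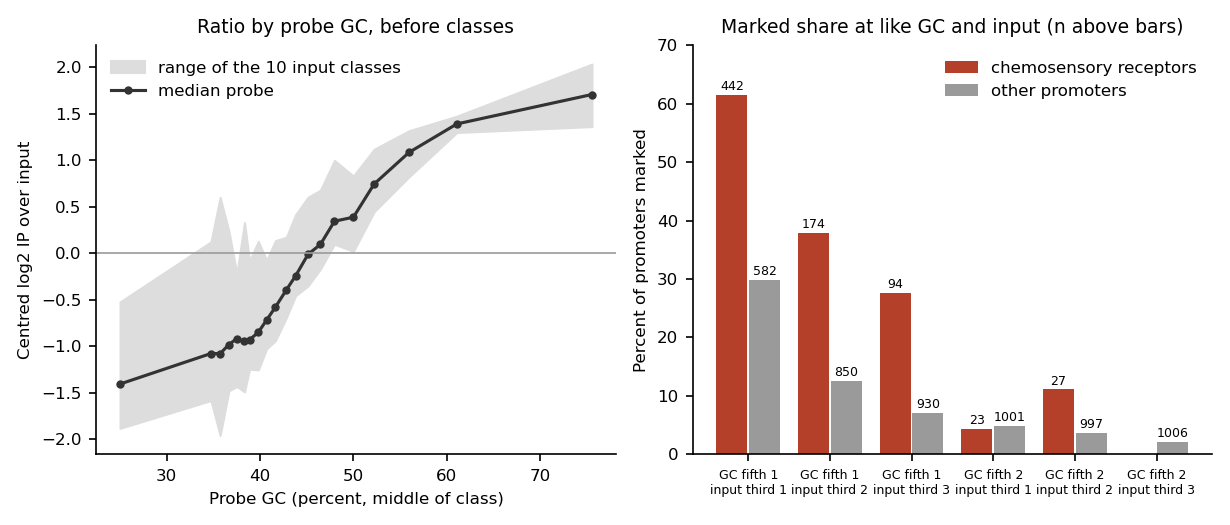
Left, median centred log2 IP over input (y axis) of autosomal probes against probe GC in percent (x axis), with the range of the medians of the 10 input classes; the medians climb from -1.41 to 1.71. Right, percent of promoters marked (y axis) in classes of like promoter GC and input, for chemosensory receptors and other promoters; in the classes of lowest GC the receptors stand at 61.5%, 37.9% and 27.7% and the others at 29.9%, 12.6% and 7.10%.

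The classes did not take up all of the dependence. Over promoters the class-adjusted value had a correlation of -0.30 with mean probe GC and -0.41 with mean input signal (15361 promoters that share 1 array). Of the 3072 promoters of lowest GC (28.9% to 40.6%), 711 were marked (23.1%), against 45 of the 3073 of highest GC (1.46%). The number of probes counted too: 18.3% of 2746 promoters with 3 to 7 usable probes were marked, 7.23% of 5605 with 8 to 14 and 1.37% of 7010 with 15 or more. For unmarked promoters these shares were 11.1%, 5.55% and 2.28%. When promoter means themselves were put in classes of GC and input, 759 promoters were marked and 800 unmarked. These share 555 marked promoters with the 1003, which is 73.1% of the 759 and 55.3% of the 1003.

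Probes of 1 promoter agreed weakly. Neighbouring probes up to 150 bp apart had a correlation of 0.07 in class-adjusted ratio over 66266 pairs, against 0.19 in IP signal and 0.40 in input signal. The means of odd and of even probes had a correlation of 0.21 over the 12615 promoters with 8 or more probes. Both means were at 0.5 or more for 420 of the 501 marked promoters of that size (83.8%), and both at -0.5 or less for 391 of the 471 unmarked ones (83.0%), shares that the call on the same probes helps to set.

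Among promoters with at least 8 usable probes and at least 80% of the designed probes usable, Hist1h4c (chr13:23706095-23708354) was highest at 2.24 ± 0.51 (SE, 10 probes). Of its probes 9 were above 0, over a range of -1.13 to 3.99, and on PRDM2 arrays 1 and 2 it stood at 0.29 and 0.34. Of the 29 canonical histone promoters 2 were marked and 3 unmarked. Iqub (chr6:24463806-24467520) stood at 2.08 ± 0.50 (SE, 14 probes), with 1.35 and 0.67 on the PRDM2 arrays. All 8 probes of Gpr141, an orphan receptor, were above 0, and its mean was 2.08 ± 0.31 (SE). Of the 12 highest, 7 were olfactory receptors, led by Olfr684 at 2.14 ± 0.54 (SE, 9 probes). The others included Sprr2f, a protein of the skin barrier, at 2.05 ± 0.41 (SE, 16 probes) and Ms4a6c, a membrane protein of blood cells, at 2.04 ± 0.63 (SE, 10 probes).

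The lowest was Tnfaip1, an adaptor of a ubiquitin ligase, at -2.38 ± 0.66 (SE, 8 probes), with 1 probe above 0. Top1mt, the mitochondrial topoisomerase on chromosome 15, stood at -2.28 ± 0.46 (SE, 14 probes), Rmnd5b at -2.20 ± 0.69 (SE, 10 probes) and the kinase Stk10 at -2.12 ± 0.47 (SE, 8 probes). Obfc2b, a single-strand DNA binding protein, stood at -2.09 ± 0.90 (SE, 8 probes) and Rplp1, a protein of the ribosomal stalk, at -2.04 ± 0.46 (SE, 15 probes). On the PRDM2 arrays these promoters lay between -0.90 and 0.24. Single probes of the high and low promoters overlap, while the gap between their means was set by choosing the extremes.

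**Figure D2:**
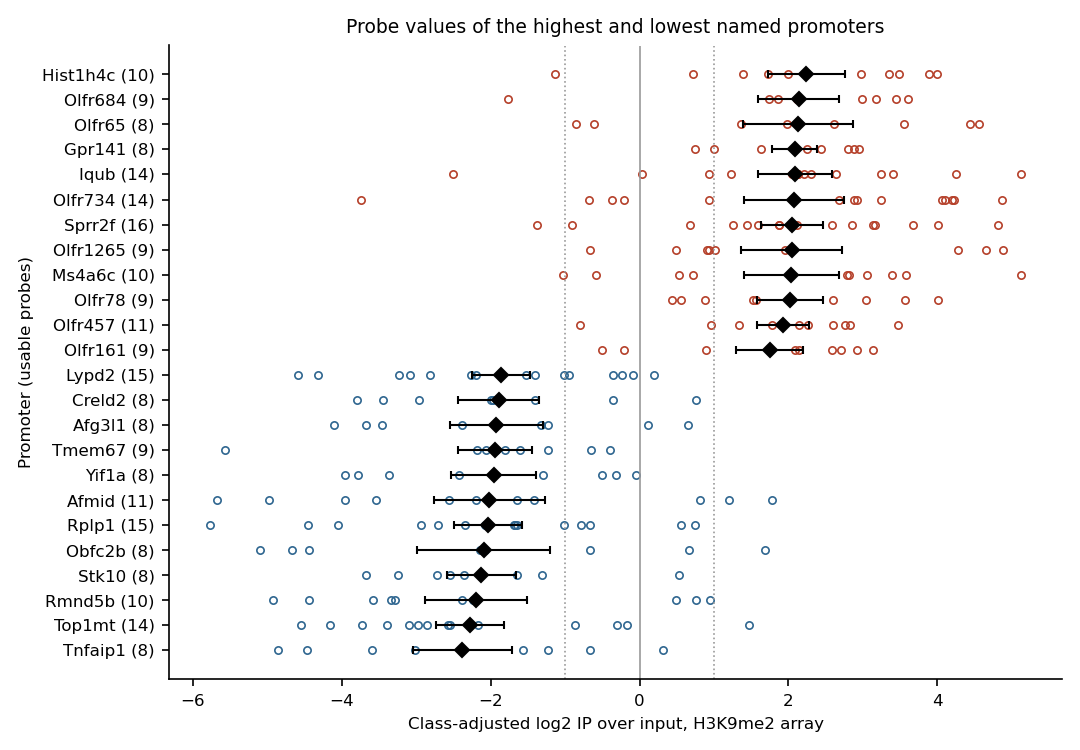
Class-adjusted log2 IP over input (x axis) of every usable probe of the 12 highest and 12 lowest named promoters (y axis), with the mean and its SE over probes as a diamond and bar and the thresholds at 1 and -1 as dotted lines. Means run from 2.24 for Hist1h4c to -2.38 for Tnfaip1, while single probes of most promoters reach the other side of 0.

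In the upper range of GC, where few promoters were marked, the highest were Tmod3, a capping protein of actin filaments, at 1.59 ± 0.30 (SE, 14 probes, all above 0), Zfp664 at 1.53 ± 0.33 (SE, 9 probes) and Cds1 at 1.45 ± 0.49 (SE, 11 probes). On the PRDM2 arrays Tmod3 stood at 1.42 and 0.96 and Zfp664 at 1.32 and 1.16, so these were not high on the H3K9me2 array alone. Of the 76 named promoters past a threshold, 15 stayed past it under each alternative run for them. These were Olfr684, Olfr734, Sprr2f, Cd300e, Gabrb2, Ephx2, Tmod3, Gsdm2 and Zfp664 among the marked and Top1mt, Afmid, Creld2, Lypd2, Krt78 and Rpl3 among the unmarked. Of the latter, Top1mt, Creld2, Lypd2, Krt78 and Rpl3 lie on chromosome 15, which stood apart as a whole. All the marked promoters among the 15 were also above the medians of all promoters on PRDM2 arrays 1 and 2 (0.28 and 0.14). Their PRDM2 values ran from 0.47 (Sprr2f) to 2.44 (Gsdm2), and Gsdm2, at 2.44 and 1.88, was higher there than on the H3K9me2 array (1.54). The unmarked ones were below 0 on both PRDM2 arrays, from -1.63 (Creld2) to -0.07 (Rpl3).

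Among the 33 gene lists the 3 of chemosensory receptors had the highest marked shares. Olfactory receptors, which detect odours in the nose, were marked at 308 of 677 promoters (45.5%, exact 95% binomial interval 41.7% to 49.3%, counting error only), with a median of 0.88 and 561 above 0. Vomeronasal receptors, which detect pheromones, were marked at 45 of 87 (51.7%, median 1.12), and taste and trace amine receptors at 17 of 45 (37.8%, median 0.69). The background was 6.53% marked with a median of -0.03. Together they gave 370 of the 1003 marked promoters (36.9%) while being 5.27% of all promoters. A further 161 olfactory, 22 vomeronasal and 3 taste or trace amine receptors on the array had fewer than 3 usable probes, and receptors with a value had a median of 8 usable probes against 14 over all.

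**Figure D3:**
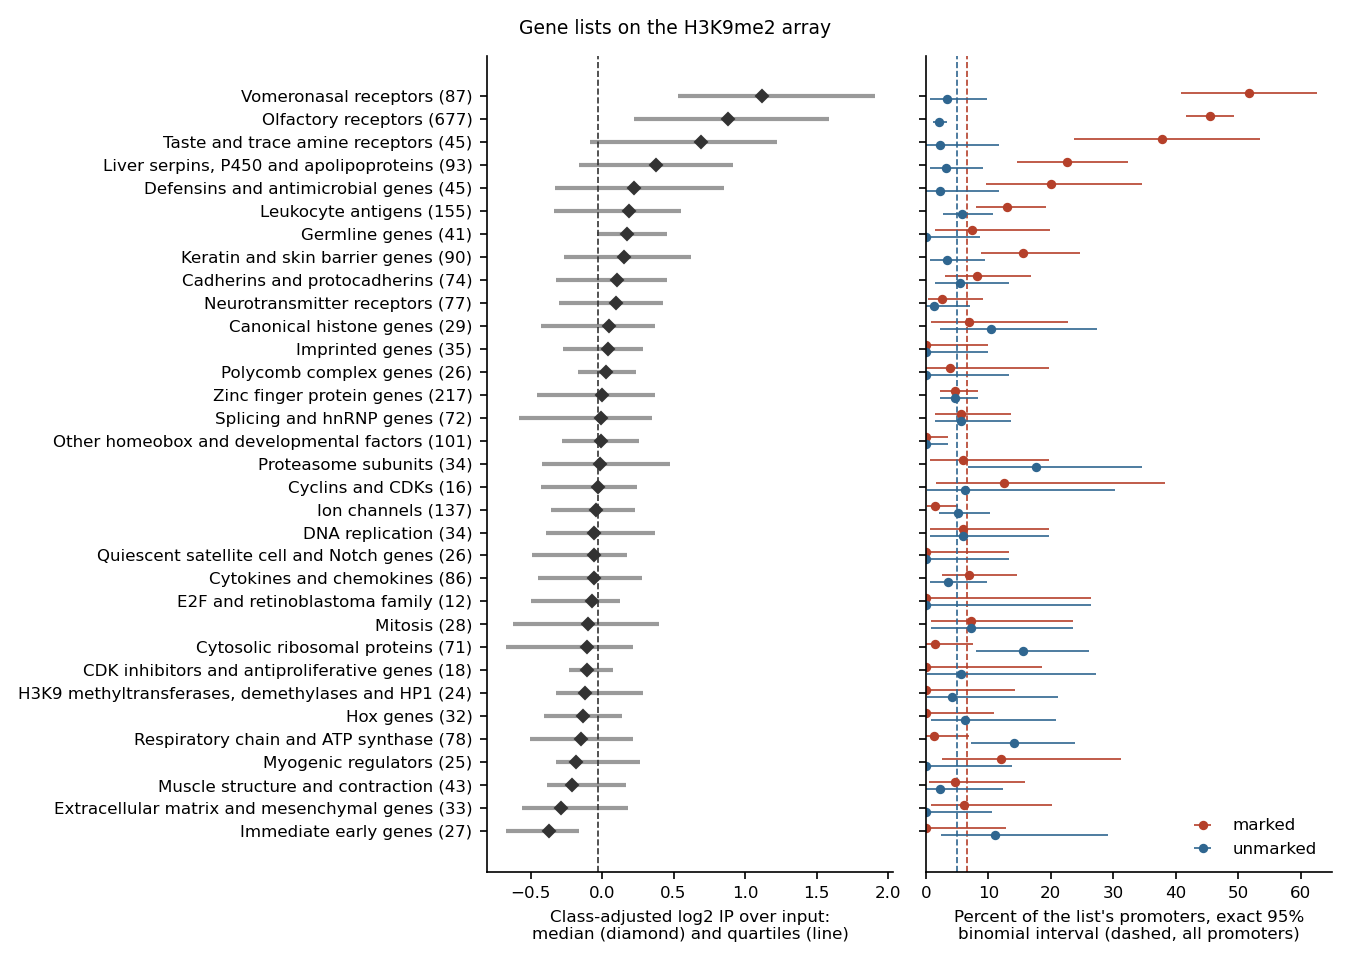
Left, median and quartiles of the class-adjusted log2 IP over input (x axis) of the promoters of each gene list (y axis, number of promoters in parentheses), with the median of all promoters dashed. Right, percent of each list marked and unmarked (x axis) with exact 95% binomial intervals, and dashed lines for all promoters at 6.53% and 5.05%; the receptor lists stand at 37.8% to 51.7% marked.

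The receptors are poor in GC (median 37.6% against 44.4% for all promoters), and they were compared with promoters like them. Among promoters of lowest GC with the lowest input, 272 of 442 receptors (61.5%) and 174 of 582 others (29.9%) were marked. At middle input the shares were 66 of 174 (37.9%) and 107 of 850 (12.6%), and at the highest input 26 of 94 (27.7%) and 66 of 930 (7.10%). At the next level of GC (40.6% to 43.3%) 4 of 68 receptors (5.88%) and 106 of 3004 others (3.53%) were marked. The median of all receptors lay above that of all promoters under each of the 13 alternatives, by 0.34 to 1.14. The marked share was 22.6% without classes (3.85% of all promoters), 15.6% with normexp (1.85% of all) and 23.2% when the IP too had to be well above background (3.91% of all). It was 21.1% (171 of 809, against 4.94% of all promoters) with classes of promoter means, under which 5.76% of olfactory and 10.3% of vomeronasal receptors were unmarked, against 5.21% of all.

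Both channels moved with the receptors. Against promoters of like GC, the receptors' median IP signal was higher by 0.33 and their input lower by 0.13 on the log2 scale. Among probes without CpG, receptor probes lay above other probes in each of 10 classes of GC, by a median of 0.63 and at least 0.07. In those classes receptor IP was higher by a median of 0.36, and receptor input differed by a median of -0.43. On the PRDM2 arrays the same comparison of ratios gave 0.06 and 0.07, with input differences of -0.27 and 0.04. The part of the low input in the receptors' ratio was not tested.

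Olfactory receptors differed by chromosome. They were marked at 18 of 25 promoters on chromosome 16 (72.0%), 28 of 41 on chromosome 10 (68.3%), 63 of 97 on chromosome 2 (64.9%) and 57 of 101 on chromosome 9 (56.4%). On chromosome 11 the count was 14 of 65 (21.5%), on chromosome 4 it was 1 of 22 (4.55%) and on chromosome 1 it was 1 of 26 (3.85%). Median GC was 36.4% on chromosome 16 and 39.3% on chromosome 4, and median log2 input 7.79 and 9.16, so GC and input moved with the counts. Olfr1415 on chromosome 1 was unmarked at -1.56 ± 0.41 (SE, 12 probes). The longest run of neighbouring marked promoters was 10 olfactory receptors on chromosome 9 (chr9:38001572-38200086, Olfr143 to Olfr902, median 1.91), and 8 more formed a run on chromosome 2 (chr2:85790167-86803792, Olfr1031 to Olfr1102, median 1.94). Other genes within 50000 bp of a receptor were marked at 8 of 128 promoters (6.25%, exact 95% binomial interval 2.74% to 11.9%), and those over 1000000 bp away at 566 of 13061 (4.33%).

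The prolactin family, hormones of the pituitary and placenta whose genes sit side by side on chromosome 13, gave a run of 9 marked promoters (chr13:27264471-27620412, Prl3a1 to Prl7b1, median 1.88). The family was picked out after its values were seen. Of its 19 promoters 12 were marked (63.2%, against 6.53% of all) and 17 were above 0 (48.1% of all). The median was 1.1, over a range of -0.85 (Prl7c1) to 2.60 (Prl8a8). The family's median GC was 37.5%, and 14.7% of promoters of lowest GC (28.9% to 40.6%) outside the receptors were marked. Prl3a1 stood at 2.00 ± 0.44 (SE, 8 probes) and Prl6a1 at 1.88 ± 0.68 (SE, 12 probes). Prl8a8 rested on 7 probes (SE 0.45). The family's median on the PRDM2 arrays was 0.22 and 0.10, beside 0.28 and 0.14 for all promoters. Against promoters of like GC its median IP was higher by 0.11 and its input differed by -0.48, with input lower at 16 of 19 promoters. The count of 12 fell to 4 marked and 1 unmarked with classes of promoter means, 6 and 2 without classes, 4 and 2 with IP well above background too, and 3 and 0 with normexp. The part of the low input was not tested.

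Of 6 other lists of tissue genes poor in GC (medians of 39.4% to 42.0%), 4 had marked shares with an interval above the 6.53% of all promoters. Outside the receptors, 347 of 2362 promoters of lowest GC (28.9% to 40.6%) were marked (14.7%), a share that all 4 intervals include. At the next level of GC (40.6% to 43.3%) the share was 3.53%. The liver list of serpins, cytochromes P450, glucuronosyltransferases and plasma proteins was marked at 21 of 93 promoters (22.6%, median 0.37). Among its members Cyp2j5 stood at 1.67 ± 0.71 (SE, 8 probes), Cyp2j11 at 1.53 ± 0.66 (SE, 10 probes) and the apolipoprotein Apoc3 at -0.83 ± 0.37 (SE, 8 probes). For this list the median IP was 0.40 above promoters of like GC and the median input 0.17 above, with input below at 36 of 93 promoters. Its median CpG per probe differed by -0.34 from promoters of like GC. With CpG number in the classes the list's median was 0.26 and 19 were marked (20.4%, against 6.19% of all). The parts of input and CpG were not tested. Defensins and other antimicrobial genes were marked at 9 of 45 (20.0%), keratin and skin barrier genes at 14 of 90 (15.6%) and leukocyte antigens at 20 of 155 (12.9%). Cytokines and chemokines, at 6 of 86 (6.98%), and cadherins and protocadherins, at 6 of 74 (8.11%), were near the background. With classes of promoter means the shares were 15.1% for the liver list, 13.3% for defensins, 7.78% for keratins and 9.68% for leukocyte antigens, against 4.94% of all. Without classes they were 8.60%, 2.22%, 3.33% and 7.74%, against 3.85% of all, so the defensin and keratin excess ended there. With the IP well above background too, the liver share was 7.78% and that of leukocyte antigens 5.88%, against 3.91% of all. In that setting defensins were marked at 5 of 39 (12.8%) and keratins at 9 of 88 (10.2%).

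The lists that follow differ from these in probes per promoter, with which the share of calls moved. The medians were 16 usable probes for neurotransmitter receptors, 18 for ion channels and 20 for homeobox and Hox genes, against 10 for the liver list and 9 for defensins, and 1.37% of all promoters with 15 or more probes were marked and 2.28% unmarked. Neurotransmitter receptors were marked at 2 of 77 promoters (2.60%) and ion channels at 2 of 137 (1.46%). Of 101 homeobox and developmental factors none was marked or unmarked (exact 95% binomial upper bound 3.59%), and the quartiles were -0.28 and 0.26. Of 35 imprinted genes none passed either threshold, and of 32 Hox genes none was marked and 2 were unmarked. Germline genes, which somatic cells silence, had 29 of 41 promoters above 0 (70.7%, against 48.1% of all), a median of 0.17 and 3 marked. Under each of the 13 alternatives this median exceeded that of all promoters, by 0.09 to 0.25.

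Housekeeping genes of the ribosome, proteasome and respiratory chain were unmarked more often than the background of 5.05%. Splicing and hnRNP genes were near it, with 4 of 72 promoters unmarked (5.56%) and 4 marked. Ribosomal proteins were unmarked at 11 of 71 promoters (15.5%) and marked at 1, subunits of the proteasome were unmarked at 6 of 34 (17.6%) and marked at 2, and the respiratory chain with ATP synthase was unmarked at 11 of 78 (14.1%) and marked at 1. Rpl3 stood at -1.69 ± 0.61 (SE, 8 probes), Atp5h at -1.37 ± 0.49 (SE, 8 probes) and Psmb1 at -1.18 ± 0.74 (SE, 9 probes). Psmc6 and Psmd4, of the proteasome's regulatory particle, were marked at 1.21 ± 0.68 (SE, 9 probes) and 1.16 ± 0.73 (SE, 13 probes). Medians stayed near that of all promoters, at -0.11, -0.02 and -0.15. When CpG number was added to the probe classes the unmarked counts were 3, 5 and 6, against 4.59% of all promoters, so for ribosomal proteins (4.23%) the excess ended. Without chromosome 15 they were 8 of 67, 6 of 34 and 9 of 74. With normexp they were 1 of 71, 0 of 34 and 0 of 78, against 0.29% of all promoters. Ribosomal, proteasome and respiratory chain promoters had medians of 12, 10 and 11 usable probes, against 11 for splicing genes and 14 over all.

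Immediate early genes, which growth signals switch on, had the lowest class-adjusted median of the 33 lists at -0.37, with 3 of 27 above 0 and none marked. Unmarked were 3 (11.1%, against 5.05% of all promoters and 2.28% of those with 15 or more probes). Without chromosome 15 the list's median was -0.28, with 2 of 23 unmarked (8.70%, against 4.37% of all). Without classes its median was -0.32, and other lists, such as canonical histones at -0.69, were lower. Zfp36, whose product destabilises mRNA, stood at -1.11 ± 0.35 (SE, 17 probes), and Egr3 was highest at 0.41 ± 0.31 (SE, 23 probes). Their median lay below that of all promoters under each of the 13 alternatives, though none was unmarked without classes or with classes of promoter means. The list's PRDM2 medians were -0.04 and 0.12, beside 0.28 and 0.14 for all promoters.

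Lists of the cell cycle were short, and none had an interval that left out the shares of all promoters (6.53% marked and 5.05% unmarked). Of 16 cyclins and CDKs 2 were marked (12.5%) and 1 unmarked (6.25%), of 34 DNA replication genes 2 and 2 (5.88% each), and of 28 mitosis genes 2 and 2 (7.14% each). Of 18 CDK inhibitors and antiproliferative genes none was marked and 1 was unmarked, and of 12 E2F and retinoblastoma genes none passed either threshold. Ccna2, the cyclin of S phase and mitotic entry, stood at -0.50 ± 0.58 (SE, 9 probes, 4 above 0), with 0.01 and 0.42 on the PRDM2 arrays. Over the alternatives Ccna2 ranged from -1.31 to 0.44, and its sign turned with normexp (0.098) and with IP well above background too (0.44). Cdc25a, a phosphatase that activates CDKs, was marked at 1.19 ± 0.53 (SE, 12 probes) and Cenpe, a kinetochore motor, at 1.44 ± 0.55 (SE, 10 probes). Mcm4, of the replicative helicase, was unmarked at -1.46 ± 0.91 (SE, 8 probes). No promoter on the array carries the name Prdm2, so it was not analysed here.

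Of 25 myogenic regulators 3 were marked (12.0%, exact 95% binomial interval 2.55% to 31.2%, against 6.53% of all) and none unmarked, and 8 were above 0. Their median was 0.15 log2 units under that of all promoters and turned to 0.08 above it without classes. Pax7, the satellite cell factor, was marked at 1.13 ± 0.31 (SE, 23 probes), and on the PRDM2 arrays it stood at 1.74 and 0.82, on either side of that value. Myog and Myod1, which drive muscle differentiation, stood at -0.28 ± 0.33 (SE, 18 probes) and -0.08 ± 0.30 (SE, 20 probes). Of 43 genes of muscle structure 2 were marked (4.65%) and 1 unmarked (2.33%), against 6.53% and 5.05% of all promoters. The list's median of -0.21 lay below that of all promoters, as it did under each alternative. The marked ones were Myh4, a myosin of fast fibres, at 1.19 ± 0.49 (SE, 17 probes) and Myoz2, a Z-disc protein, at 1.02 ± 0.43 (SE, 19 probes). Tnnc2, fast troponin C, was unmarked at -1.12 ± 0.58 (SE, 9 probes). Genes of the extracellular matrix had a median of -0.28 with 12 of 33 above 0.

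The ratio had a shape around the gene start. Starts of 8324 genes with usable probes were placed by exact matches of probes to RefSeq windows. Genes outside the receptor, ribosomal, proteasome and respiratory chain lists were taken first. Their median class-adjusted ratio was 0.20 at 2000 to 1500 bp upstream and -0.12 at 500 to 250 bp upstream. It was 0.01 in the first 250 bp downstream and -0.11 in the next 250 bp. Without classes the order was turned, with a centred ratio of -0.26 at 2000 to 1500 bp upstream and 0.94 in the first 250 bp downstream, where median GC was 54.3% against 39.7%. Probes without CpG in these genes stood at 0.38 at 2000 to 1500 bp upstream, 0.14 just upstream of the start and 0.04 at 250 to 500 bp downstream. On the PRDM2 arrays the CpG-free probes stood at 0.12 and 0.09 at 2000 to 1500 bp upstream. All probes of these genes stood there at 0.07 and 0.05.

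Ribosomal, proteasome and respiratory chain genes went from 0.49 at 750 to 500 bp upstream (72 probes) to -0.76 at 250 to 500 bp downstream (118 probes), where the PRDM2 arrays stood at -0.42 and -0.32. In receptors the ratio was 1.12 to 1.68 at every step from 2500 to 250 bp upstream, 0.20 in the first 250 bp downstream and -0.04 in the next. Median log2 input of the receptor probes was 7.62 to 7.93 in those upstream steps and 9.31 and 9.87 in the downstream ones, while IP was 8.28 to 8.41 and then 8.65 and 8.90. It was -0.01 at 500 to 750 bp downstream (input 9.74), and farther downstream it was 0.65 at 750 to 1000 bp (358 probes, input 8.96) and 0.40 at 1000 to 1500 bp (62 probes, input 8.43). The part of input in this profile was not tested.

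**Figure D4:**
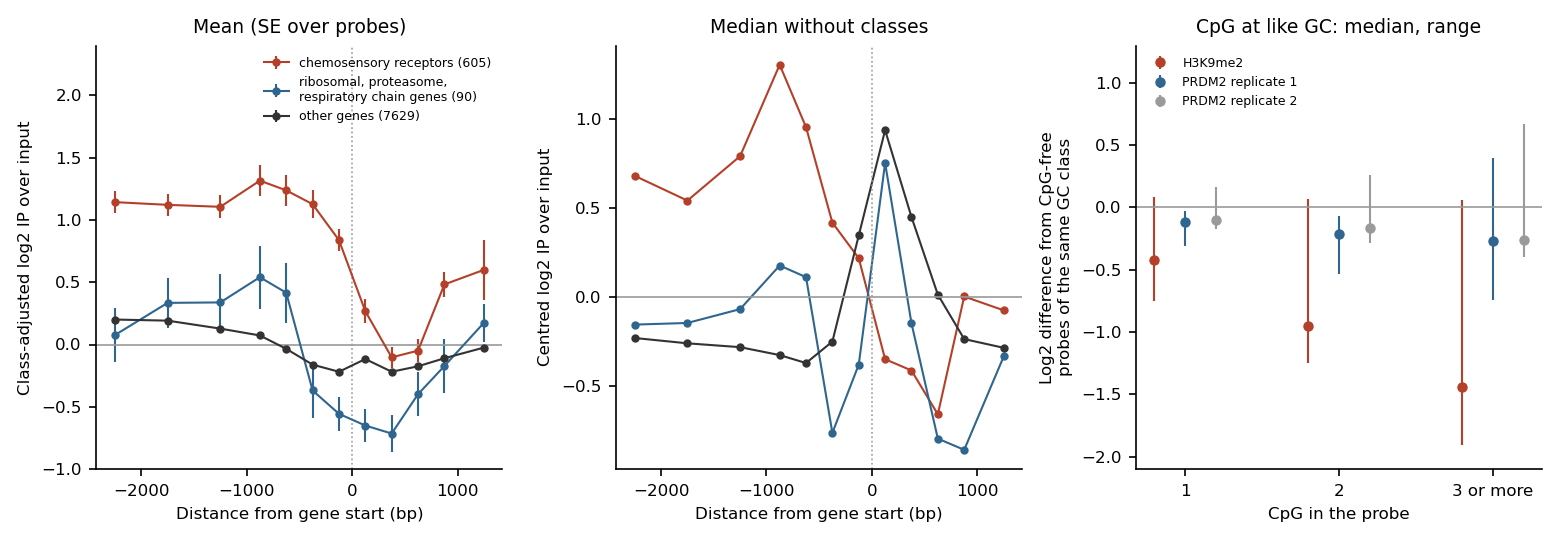
Left, mean class-adjusted log2 IP over input (y axis, bars are SE over probes) against distance from the gene start in bp (x axis) for receptors, for ribosomal, proteasome and respiratory chain genes, and for other genes. Middle, median centred ratio without classes at the same positions, where other genes peak at 0.94 just downstream. Right, class-adjusted ratio (y axis) of probes with 1, 2 or 3 or more CpG (x axis) minus that of CpG-free probes. Points and bars are the median and range over classes of like GC on the 3 arrays. For 3 or more CpG the median is -1.44 on the H3K9me2 array and -0.27 and -0.26 on the PRDM2 arrays.

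The ratio was lower on probes with CpG in most classes of fixed GC. Against CpG-free probes of the same GC class, probes with 1 CpG lay lower in 19 of 20 classes (median difference -0.42), probes with 2 CpG in 18 of 19 (-0.95) and probes with 3 or more in 17 of 19 (-1.44). The IP differed by -0.48, -0.98 and -1.59, and the input by 0.01, -0.01 and -0.12. On the PRDM2 arrays the ratio of probes with 3 or more CpG differed by -0.27 and -0.26, and the difference between the antibodies was not tested. These medians count each GC class once, and the difference was smaller at high GC. At 54.2% to 57.8% GC, 6069 probes with 2 or more CpG had a median of -0.07, against 0.14 for CpG-free probes. At 64.4% to 86.7% GC, 11375 such probes stood at 0.0037, against -0.015 for 113 CpG-free probes. Over all GC, the 24645 probes with 3 or more CpG had a median of -0.14. CpG-free probes had a class-adjusted ratio of 0.24 where both neighbours were CpG-free too, and of 0.08 and 0.11 where the neighbours held 3 and 4 or more CpG.

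Chromosome 15 stood apart from the other 18 autosomes. Of its 610 promoters 130 were unmarked (21.3%) and 5 marked (0.820%), and its median promoter lay at -0.59. Unmarked shares on the other autosomes ran from 2.65% to 6.05%. Its median log2 input was 0.68 above that of all autosomal probes on the H3K9me2 array and 0.69 and 0.65 above on the PRDM2 arrays. Its IP was 0.26 above on the H3K9me2 array and 0.57 and 0.54 above on the PRDM2 arrays. The part of the high input in the unmarked calls was not tested. Without chromosome 15 there were 998 marked and 645 unmarked promoters. Of the 2 runs of 4 unmarked neighbours, Gpihbp1, Zfp41, Top1mt and Rhpn1 lay on chromosome 15 (chr15:75421498-75533105) and Abcb8, Accn3, Cdk5 and Slc4a2 on chromosome 5 (chr5:23904388-23936845).

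**Figure D5:**
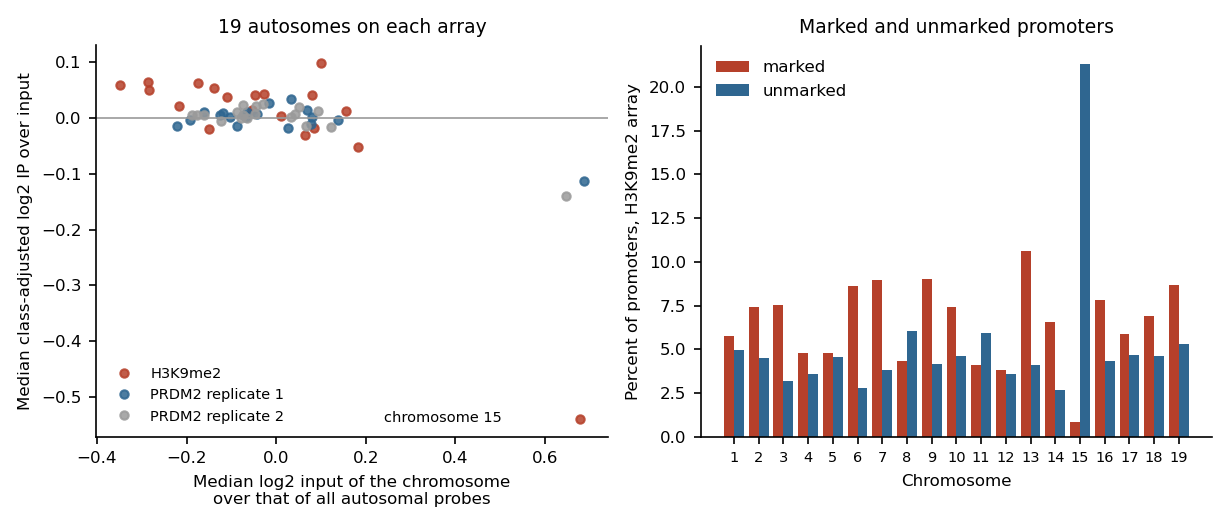
Left, median class-adjusted log2 IP over input of each autosome (y axis) against its median log2 input over that of all autosomal probes (x axis) on the 3 arrays; chromosome 15 lies at the far right, at -0.54 on the H3K9me2 array and -0.11 and -0.14 on the PRDM2 arrays. Right, percent of promoters marked and unmarked on the H3K9me2 array by chromosome, with 21.3% unmarked on chromosome 15.

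H3K9me2 was set against PRDM2 with limma on the class-adjusted promoter values of the 3 arrays, taking the spread of the PRDM2 pair for the lone H3K9me2 array too. The labels do not say that this pair had separate cultures, so the spread may be technical, and the lone array gives no spread of its own: the calls compare these arrays, not the antibodies. Of 15354 promoters 263 were higher on the H3K9me2 array (1.71%) and 185 lower (1.2%) at an adjusted p under 0.05. These calls went with probe number, which the fit did not take into account. Promoters with 3 to 7 usable probes gave most of them in both directions, and those with 15 or more, the largest group, gave the fewest. Nearly all higher calls were on promoters already called marked, and most were on receptors (5.27% of all promoters). The same H3K9me2 values went into both kinds of call, so this is no separate support. No count is given for a gene list or for the prolactin family, which was picked out after its values were seen. Receptor medians on the PRDM2 arrays were 0.27 and 0.14, beside 0.28 and 0.14 for all promoters. The promoters named above were chosen for their extreme H3K9me2 values, so their differences are given as a description with no p. They were 1.93 for Hist1h4c, 1.90 for Olfr1265, 1.08 for Iqub, 1.16 for Gpr141, -2.02 for Obfc2b, -1.90 for Tnfaip1 and -1.88 for Top1mt.

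The split of these calls turned on what was taken as 0. The H3K9me2 array had its median promoter at -0.03, and the PRDM2 arrays had theirs at 0.28 and 0.14. With each array's median promoter as 0 the calls were 342 higher and 38 lower, and without classes 216 higher and 5538 lower. With normexp background correction limma called none (before adjustment, 562 were higher and 340 lower with p under 0.05). Over promoters the class-adjusted values of the H3K9me2 array had correlations of 0.46 and 0.38 with the PRDM2 arrays, which had 0.50 with each other (15354 promoters or more, which share probes, GC and chromosome 15).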

How the data were processed

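The 3 arrays were scanned as 2-colour arrays and read with Agilent Feature Extraction 10.5.1.1, per the file headers, which deposited processed signal intensity for each dye after background subtraction, detrending and linear dye normalization. The deposited log10 ratio of red over green was used only as a check. The deposited value table of the same arrays was taken as log2 ratios; its scale and centring are not stated, its array medians were 0.12, 0.10 and 0.28, and its correlations with the scanner ratios were 0.96, 0.94 and 0.97. No array build, aligner or antibody source is given in the sources used here.

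Probes were kept when they were no control, had input well above background and carried no outlier flag (219986 of 237203 on the H3K9me2 array). The log2 ratio was centred on the median probe, then on classes of GC and input, and averaged over at least 3 autosomal probes of a gene name. Of 16394 names on the array 13177 were current symbols and 2829 synonyms. Promoters were named by a rule: at least 8 usable probes, 80% of designed probes usable, the 12 highest and lowest, the extremes of GC classes and of gene lists, the longest runs, and Ccna2, Myog and Myod1. Prolactin genes outside the run of 9 fall outside it. Fits used limma 3.58.1 in R 4.3.3 with Benjamini-Hochberg adjustment; scripts were tested on simulated data. The number of arrays limits the precision. Alternatives changed the classes, background correction, probe filters, summary over probes, thresholds and point of 0. The members and gene lists were chosen with earlier results of these data known.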

Additional observations from a re-analysis of the deposited data

How the results depend on the processing

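Marked promoters numbered 592 without classes, 284 with normexp, 591 with IP well above background too, 501 with at least 8 probes, and 2937 and 401 at log2 thresholds of 0.5 and 1.5, against 1003. Unmarked promoters numbered 1798 without classes, 45 with normexp, 1221 with the median over probes, 471 with at least 8 probes, and 3137 and 180 at those thresholds, against 775. The share of chemosensory receptors marked was 45.7%, against 6.53% of all promoters. Without classes it was 22.6% (3.85% of all), with classes of GC alone 54.3% (7.68%) and with normexp 15.6% (1.85%). It was 39.3% with the deposited value table (5.42% of all) and 23.2% with IP well above background too (3.91%). With dim input kept it was 35.2% (5.43% of all), with the median over probes 49.6% (8.98%) and with at least 8 probes 32.5% (3.97%). At those thresholds it was 65.3% (19.1% of all) and 27.3% (2.61%). Among alternatives chosen after seeing the data it was 21.1% with classes of promoter means (4.94% of all). With CpG number in the classes, also chosen then, it was 39.3% (6.19%). The median of the extracellular matrix list relative to all promoters turned to 0.031 with IP well above background too, that of the defensins to -0.22 without classes and -0.031 with classes of promoter means, and Krtap16-10 to -0.043 with IP well above background too. The causes were not tested.

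For H3K9me2 minus PRDM2, limma called 0 higher and 0 lower with normexp, 632 higher and 327 lower with the median over probes, 5538 lower without classes, and 38 lower with the median promoter as 0, an alternative chosen after seeing the data. Leaving out a PRDM2 array left no test: promoters over by 1 or more then numbered 496 to 678 (534 with all arrays) and those under by 1 or more 971 to 1557 (925), the 1557 without PRDM2 replicate 2. No paired analysis was possible because the groups compared share fewer than 2 replicate numbers. Low IP signal limits the PRDM2 side, and 1 array limits every H3K9me2 call.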
